A study of Mus musculus with 31 samples.

Results

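Long noncoding RNAs and the host transcripts of small nucleolar RNAs (snoRNAs) were followed in polysomal RNA and total mRNA of Ba/F3 cells that expressed WT or R98S RPL10. The 10 genes were chosen by symbol. Of these, 3 are nuclear noncoding RNAs (Malat1, Neat1 and Kcnq1ot1) and 7 are snoRNA host genes (Gas5, Snhg1, Snhg3, Snhg5, Snhg6, Snhg8 and Snhg12). Both gene tables listed 9 of the 10 symbols among 41255 in all. Snhg8 was listed in neither table, under this symbol or under its older names 1110065M07Rik and 2010109N14Rik, so no value is given for it.

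Ba/F3 is a mouse lymphoid cell line that grows with interleukin 3. RPL10 belongs to the large ribosomal subunit, and in the R98S allele an arginine is replaced by serine. All clones, WT included, carried an shRNA against the endogenous mouse Rpl10 and a retroviral human RPL10 cDNA of the named allele. R98S clones 11, 13 and 35 and WT clones 28, 29 and 36 each grew from 1 cell, so that a genotype is represented by 3 clones. Total mRNA was sequenced in 9 R98S and 8 WT libraries and polysomal RNA (the pooled gradient fractions of transcripts that carried 2 or more ribosomes) in 8 R98S and 6 WT libraries. A replicate number from 1 to 3 was given to each library by its label, and 14 cultures had libraries of both kinds. The number 1 total mRNA of WT clone 36, which the study left out because it grouped with R98S, was not analysed here. Nothing states that libraries of 1 clone came from separately grown cultures, so p-values measure the spread between these libraries. In such bulk libraries, fewer cells with a transcript and less of it per cell cannot be told apart.

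Malat1, Neat1 and Kcnq1ot1 are RNAs that stay in the nucleus. Malat1 collects at nuclear speckles, Neat1 is the scaffold of paraspeckles, and Kcnq1ot1 is transcribed antisense to Kcnq1 from the paternal chromosome and silences imprinted genes around it. A snoRNA host transcript carries snoRNAs in its introns; these are cut out and guide the modification of ribosomal RNA in the nucleolus, while the spliced exons go to the cytoplasm. The spliced transcripts of several noncoding hosts hold only short open reading frames, are known to engage ribosomes and are then removed by nonsense-mediated decay. Many host genes, coding or not, start with an oligopyrimidine run like that of ribosomal protein genes, the terminal oligopyrimidine (TOP) motif by which growth signals set translation.

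Start sites of host genes are shown because TOP sequences bear on the ribosome load of a transcript. Windows of 10 bases before to 20 bases after a RefSeq start (GRCm38.p6) were read for 8 of the 10 genes on the transcribed strand. Snhg6 and Neat1 had no window in the set of starts used. Capitals mark the longest unbroken run of C and T. Gas5 has a further annotated start with a run of 3.
Snhg1, chr19:8723477-8723506, plus strand: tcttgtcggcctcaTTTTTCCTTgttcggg
Snhg12, chr4:132308668-132308697, plus strand: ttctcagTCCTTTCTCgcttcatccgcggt
Snhg5, chr9:88522878-88522907, minus strand: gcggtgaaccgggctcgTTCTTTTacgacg
Snhg8, chr3:123508317-123508346, minus strand: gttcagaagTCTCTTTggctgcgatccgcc
Gas5, chr1:161035156-161035185, plus strand: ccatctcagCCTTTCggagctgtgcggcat
Snhg3, chr4:132353667-132353696, minus strand: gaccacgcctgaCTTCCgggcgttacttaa
Malat1, chr19:5802653-5802682, minus strand: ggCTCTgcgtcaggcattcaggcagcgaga
Runs of at least 9 bases, as in Snhg1 and Snhg12, were present in 7.11% of 32851 mouse start windows of this length. Runs of at least 7, as in Snhg5 and Snhg8, were present in 17.9%, and runs of at least 6, as at the start of Gas5 shown here, in 28.7%. The run spans the annotated start in Snhg12, Snhg8 and Gas5 and begins at base 5 after it in Snhg1 and at base 8 in Snhg5. The run of 5 in Snhg3 was reached by 46.4% of windows. Malat1, shown for comparison, and Kcnq1ot1 had a longest run of 4, which is also the median of all windows.

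The annotation (GENCODE M21, mm10) places snoRNAs inside all 7 hosts, 27 in all when overlapping entries of 1 symbol (Snord80 in Gas5 and Snora16a in Snhg12) are counted once. Gas5 holds 9, Snhg1 holds 8, Snhg12 holds 4, Snhg3 and Snhg5 hold 2 each, and Snhg6 and Snhg8 hold 1 each. The tables listed 25 of these snoRNAs, and 23 of the 25 were at 0 in all total mRNA libraries. Mature snoRNAs carry no poly(A) tail and are shorter than the fragments of a poly(A) library, so these rows do not measure them. The cause of the rows at 0 was not tested. The exceptions were Snora16a and, with more reads, Snord87, a guide of the C/D class in an intron of Snhg6, whose sequence (chr1:9942463-9942549, minus strand, GENCODE M21) is shown because its reads are described with those of its host. Capitals mark box C (TGATGA, first found at base 11) and box D (CTGA, at base 75).
Snord87: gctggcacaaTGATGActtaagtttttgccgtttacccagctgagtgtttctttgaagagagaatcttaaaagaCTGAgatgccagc
Both letter strings, within 20 bases of either end on the transcribed strand, were present in 20.5% of 1507 annotated mouse snoRNA transcripts.

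The depth of the libraries was 8831180 to 22059792 reads, recovered from the deposited normalized values as whole numbers. Of protein-coding genes, 49.7% of 20516 reached a mean normalized count of 10 in total mRNA, against 2.11% of 4114 long noncoding genes. Markers of the parental cell type were present, with a mean of 69570 normalized counts of Csf2rb, the common chain of the interleukin 3 receptor, and of 4741 of Ptprc (CD45). Of 14 lymphoid or hematopoietic markers 8 reached a mean of 10, among them Cd79a (895), Spi1 (856) and Cd79b (325.8), while the early B cell genes Pax5, Ebf1 and Rag1 had means under 1. Of 6 T cell markers 3 reached a mean of 10 and none a mean of 100, and none of 8 fibroblast or epithelial markers reached 10. Polysomal libraries with number 3 stood apart from the other numbers. The 25th to 75th percentiles of coding genes in the polysomal to total ratio spanned log2 -0.88 to 0.86 in number 3, against -0.33 to 0.27 in number 1 and -0.44 to 0.36 in number 2. Ratios of Snhg1, Snhg6 and the coding snoRNA hosts are therefore also given by number.

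The 9 listed transcripts fell into 3 groups by their reads. Snhg1 was abundant, with 28366 reads over 17 total mRNA libraries and 15308 over 14 polysomal libraries. Snhg6 (385 and 62 reads) and Snhg5 (107 and 6 reads) were low but present in 17 and 16 of the 17 total mRNA libraries. The remaining listed members were at or near 0. Snhg12 had 30 reads in total mRNA and 4 in polysomal RNA, Gas5 14 and 10, Neat1 8 and 2, Malat1 7 and 0, and Kcnq1ot1 1 and 0. Snhg3 was at 0 in all 31 libraries, which allows a level of up to 0.0109 RPM (reads scaled to the library total) in total mRNA and 0.0142 in polysomal RNA (3 reads over the summed libraries, for counting error only).

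**Figure D1:**
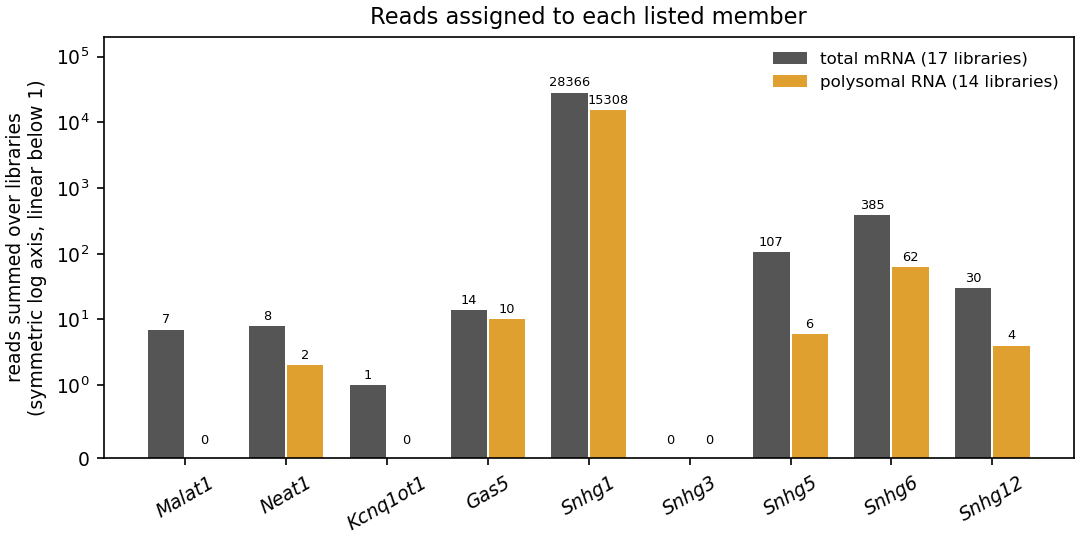
Reads assigned to each of the 9 listed genes, summed over 17 total mRNA libraries (grey) and 14 polysomal libraries (orange), on a symmetric log axis that is linear below 1. Snhg1 holds 28366 and 15308 reads, Snhg6 and Snhg5 hold 385 and 107 in total mRNA, and the other 6 genes hold 30 or fewer.

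Per length, the order in total mRNA was the same as by reads for the hosts. Snhg1 had 34.9 ± 13.1 RPKM (RPM divided by kilobases of exon, SD, n = 17), Snhg6 1.22 ± 0.548 and Snhg5 0.219 ± 0.108. The steps between these 3 hosts are larger than their SDs. Snhg12 followed with an average of 0.0468, Gas5 with 0.0135, Malat1 with 0.00314, Neat1 with 0.00148 and Kcnq1ot1 with 3e-05. From Snhg12 downward each level rests on 30 or fewer reads, the SDs (0.0419 for Snhg12 and 0.0239 for Gas5) are about as large as the levels or larger, and neighbours in this order do not differ beyond their spread.

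Malat1 had reads in 5 of the 17 total mRNA libraries. These were 1 read in R98S clone 35 number 2, 1 in R98S clone 13 number 3, 2 in R98S clone 35 number 3, 1 in WT clone 36 number 2 and 2 in WT clone 36 number 3. None of the 14 polysomal libraries held a read of it. Neat1 had 1 or 2 reads in each of 7 total mRNA libraries, 4 of R98S and 3 of WT, and 1 read each in the polysomal libraries of R98S clone 11 number 1 and R98S clone 35 number 2. Kcnq1ot1 had its single read in the total mRNA library of R98S clone 35 number 2. Reads this few give no genotype comparison. Over the 14 cultures with both libraries the polysomal to total ratio of Malat1 was 0 (0 against 6 reads, exact 95% interval 0 to 0.901) and that of Neat1 0.303 (2 against 7 reads, 0.0307 to 1.59), for counting error only. The interval of Malat1 ends just below 1, while that of Neat1 includes it.

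A row near 0 is not in itself a measure of absence in these tables. Cct6a, a subunit of the chaperonin ring that every cell uses, had a mean of 11.0 in total mRNA, while the other 7 subunits of the ring had means of 5681 to 8813. The annotation and the strand setting of the counting are not given in the sources used here, and reads that fall on more than 1 gene can be lost. Of the exonic bases of Snhg3, 86.3% are shared with other genes. Its largest overlap, 71.5% of its exonic bases, is with Gm17300 on the opposite strand, which averaged 14.4 normalized counts in total mRNA and 4.84 on polysomes. The shared part was 20.95% in Snhg1, 19.6% in Snhg12, 17.8% in Gas5, 11.1% in Snhg6, 8.32% in Snhg5, 7.72% in Malat1, 1.85% in Neat1 and 1.20% in Kcnq1ot1. The low rows therefore include genes with little overlap, and the part of the counting in them was not tested.

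The longest annotated transcript of Snhg1 (chr19:8723475-8726443, plus strand, a processed transcript) has 2728 bases in 2 exons and a longest open reading frame of 66 codons. The other annotated transcripts of Snhg1, 18 in all with this one, were not searched for reading frames. Snhg1 was the only member measured well in both fractions. In total mRNA, R98S libraries held 1249, 1649 and 3184 normalized counts (lowest, median, highest of 9) and WT libraries 577, 1329 and 2724 (of 8). The groups overlapped over most of their range. Polysomal libraries held 511, 865 and 2701 in R98S (of 8) and 467, 1096 and 2069 in WT (of 6), and the groups again overlapped. Means were 1793 ± 578 and 1463 ± 673 in total mRNA, and 1175 ± 727 and 1194 ± 738 in polysomal RNA (SD, R98S and WT).

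R98S was compared with WT on log2(value + 1) by limma, for a minimum mean of 10, and genes with a Benjamini-Hochberg adjusted p under 0.1 are called. In total mRNA 30.3% of 11133 genes were called and in polysomal RNA 13.5% of 10707 genes (30.9% with the replicate number as a block). Snhg1 was called in neither. Its log2 fold change was 0.38 (95% interval -0.13 to 0.89, limma adjusted p = 0.286) in total mRNA and 0.04 (-0.88 to 0.96, limma adjusted p = 0.978) in polysomal RNA. Without the library of WT clone 29 number 1 the total mRNA value was 0.52 (limma adjusted p = 0.0911), and on clone means it was 0.41 (limma adjusted p = 0.0778), which are calls.

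The replicate number, in contrast, separated the polysomal libraries of Snhg1. Number 3 libraries held 1452 to 2701 normalized counts, number 1 libraries 511 to 917 and number 2 libraries 467 to 812, so that all 6 number 3 libraries lay above all 8 others in both genotypes. In total mRNA the order differed. Number 1 libraries held 1649 to 3184, number 3 libraries 1116 to 1996 and number 2 libraries 577 to 1501, and number 3 overlapped both. Number 3 against the mean of numbers 1 and 2, with genotype as a term, differed by log2 1.55 (SE 0.17, limma adjusted p = 9.47e-07) in polysomal RNA, where 71.4% of all genes were called, and by 0.11 (SE 0.18, limma adjusted p = 0.747) in total mRNA, where 13.5% were called. The call in polysomal RNA is one that most genes share, and its size was above that of 94.3% of genes on the signed scale. This contrast was added after the values had been seen, and nothing in the labels says what a number stands for.

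**Figure D2:**
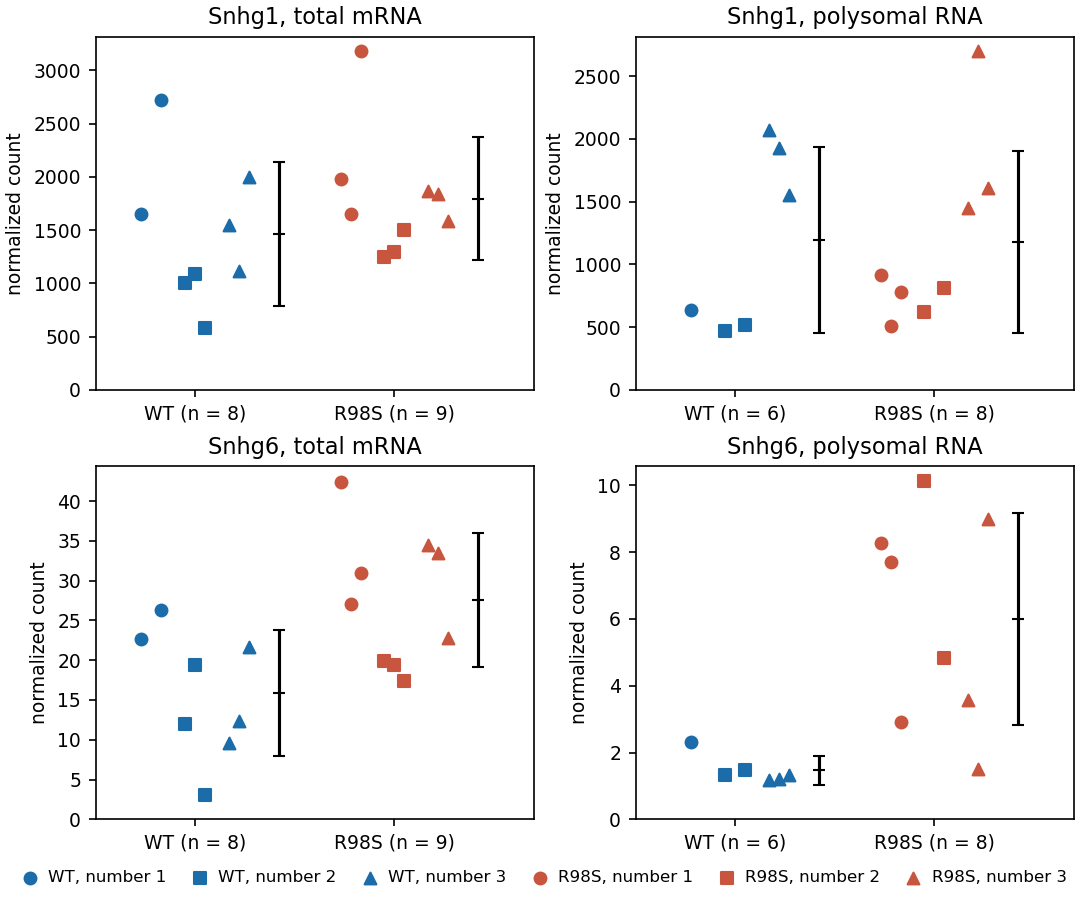
Normalized counts of Snhg1 (top) and Snhg6 (bottom) in each total mRNA library (left) and polysomal library (right), by genotype (colour) and replicate number (symbol), with the mean and SD of each group in black. Polysomal Snhg1 lies at 1452 to 2701 in number 3 and at 467 to 917 in the other numbers, while polysomal Snhg6 lies at 1.17 to 2.31 in WT and 1.52 to 10.1 in R98S.

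The polysomal to total ratio was taken within each culture on the log2 scale and centred on the median of protein-coding genes, so that 0 is the ratio of the middle coding gene. Both tables had been normalized separately by the authors, and the ratio has no absolute scale. For Snhg1 it was -1.78 in WT and -1.37 ± 0.45 (SD, n = 3) in R98S in number 1. It was -0.80 in WT and -0.69 in R98S in number 2 (n = 2 each), and 0.65 ± 0.59 in WT and 0.39 ± 0.49 in R98S in number 3 (n = 3 each). Among coding genes of the same culture Snhg1 stood between the 1.6 and 11.5 percentiles in number 1, between 10.9 and 20.2 in number 2 and between 47.7 and 79.4 in number 3. The ratio was thus below the coding median in all 8 cultures of numbers 1 and 2 and above it in 4 of 6 cultures of number 3.

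Over all numbers the ratio of Snhg1 was -0.24 in WT (limma, 95% interval -0.99 to 0.52, adjusted p = 0.580) and -0.54 in R98S (-1.19 to 0.11, adjusted p = 0.148), neither of which is a call, where 64.6% and 61% of 10627 genes were called. With the replicate number as a block both became calls. The values were then -0.57 in WT (limma adjusted p = 0.0094) and -0.56 in R98S (limma adjusted p = 0.0032), a ratio 1.49-fold and 1.48-fold below the coding median. Most genes share such a call, since 68.1% of all genes in WT and 71.4% in R98S were called with the block. Without number 3 they were -1.13 and -1.10 (limma adjusted p = 0.0304 and 0.00627), and without number 1 they were 0.07 and -0.04. The genotypes differed by log2 -0.30 in this ratio (limma, 95% interval -1.30 to 0.70, adjusted p = 0.933) and by 0.0080 with the block (-0.47 to 0.49). Of all genes 0.047% were called in this comparison, or 0.414% with the block.

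**Figure D3:**
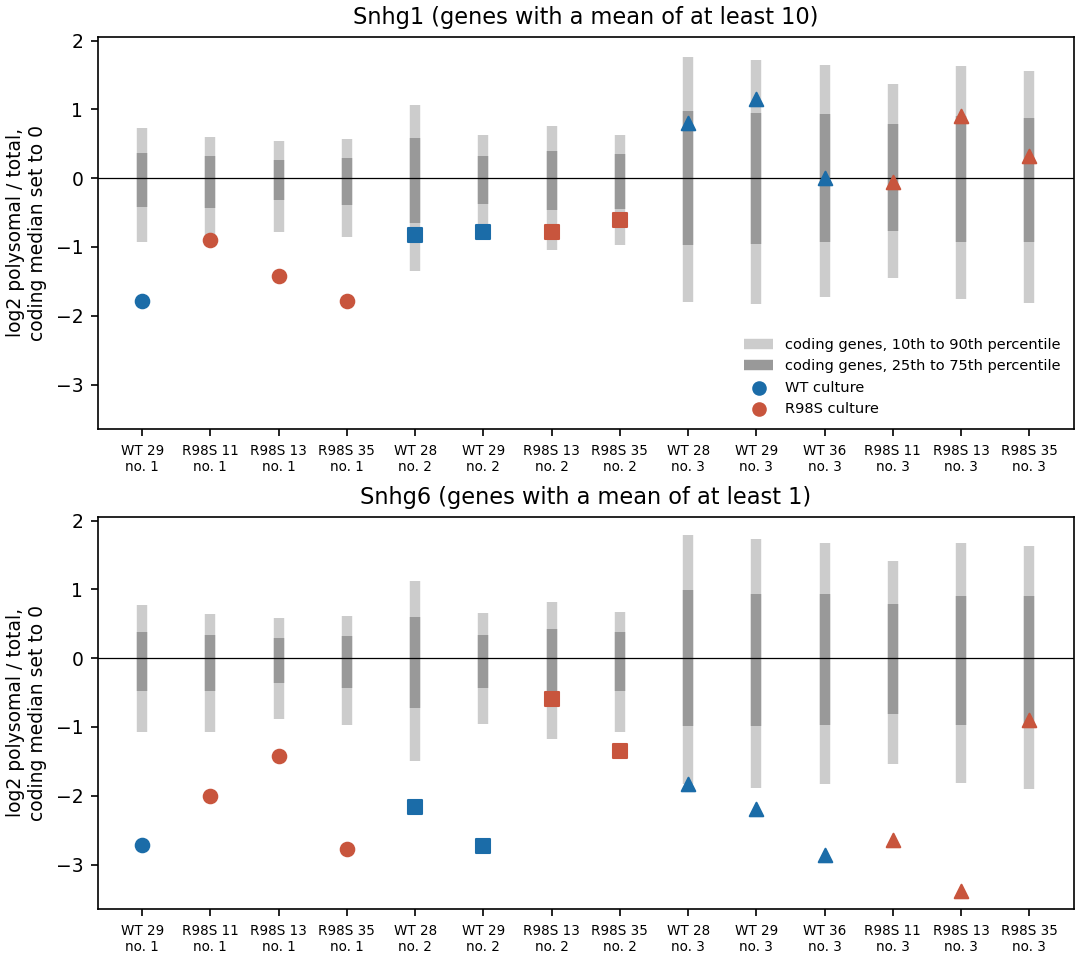
Log2 polysomal to total ratio of Snhg1 (top) and Snhg6 (bottom) in each of 14 cultures, with the median coding gene at 0 and the 25th to 75th percentiles of coding genes as dark bars inside a lighter bar for the wider range named in the key. Snhg1 lies below 0 in all cultures of numbers 1 and 2 and at -0.06 to 1.15 in number 3, and Snhg6 lies below 0 in all 14.

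Coding genes that carry snoRNAs in their introns were also counted in this contrast. Of 33 tested, 24 had a higher ratio in number 3 than in numbers 1 and 2 and 4 a lower one, with a median difference of log2 0.87, where 66.8% of all genes were called and the median of all genes was 0.01. Snhg1 differed by 1.63 (SE 0.22, limma adjusted p = 2.49e-05), above 94.8% of all genes. Among those with the smallest adjusted p-values were Rpl32 with 2.42 and Rpl21 with 1.66, ribosomal protein genes whose start windows were not read here. Proteins of snoRNA particles and of their assembly gave 13 of 17 higher and none lower, with a median of 0.88 and with Nop10, a subunit of H/ACA particles, at 2.74. Nonsense-mediated decay factors went both ways, with 7 higher and 11 lower of 24 and a median of -0.40. Those with the smallest adjusted p-values were Magoh with 2.24, Magohb with 2.17 and Casc3 with -0.998. Snhg7, a noncoding host outside the 10, was not called in this contrast of the ratio. In number 3 its total mRNA differed by -0.44 (SE 0.17, limma adjusted p = 0.1204), its polysomal level by -0.78 (SE 0.17, limma adjusted p = 0.000675) and its ratio by -0.17 (limma adjusted p = 0.434).

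The longest annotated transcript of Snhg6 (chr1:9941959-9944118, minus strand, a lincRNA) has 816 bases and a longest open reading frame of 56 codons. Snhg6 was low on polysomes in both genotypes. No polysomal library held more than 12 of its reads. Summed over 14 cultures it had 62 polysomal against 334 total mRNA reads, a ratio of RPM of 0.197 (exact 95% interval 0.148 to 0.259), which is 5.08-fold lower on polysomes. In WT the ratio was 0.0957 (0.0445 to 0.184, 10 against 96 reads) and in R98S 0.258 (0.187 to 0.349, 52 against 238 reads), intervals that do not overlap but cover counting error only. On the centred scale its log2 ratio ran from -2.87 to -1.83 in the 6 WT cultures and from -3.39 to -0.59 in the 8 R98S cultures. By number, the mean was -2.72, -2.45 and -2.30 in WT (numbers 1, 2 and 3) and -2.07, -0.97 and -2.31 in R98S. All 14 cultures lay below the coding median, at percentiles between 0.4 and 10.1 in WT and between 0.53 and 26.7 in R98S. In the limma fit at the lower minimum mean of 1, which this gene needs to be included, the ratio was -2.42 in WT (adjusted p = 0.000103) and -1.88 in R98S (adjusted p = 0.00017), and both stayed calls in all 21 alternatives tried. The pseudocount of 1 pulls such low values towards 0, so the fold is understated.

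Snhg5 and Snhg12 were also lower on polysomes by their reads. Snhg5 had 6 polysomal against 95 total mRNA reads over the 14 cultures, a ratio of 0.067 (exact 95% interval 0.024 to 0.151), or 14.9-fold lower. It was lower on polysomes in 6 of 6 WT cultures and in 8 of 8 R98S cultures. Snhg12 had 4 against 20 reads, a ratio of 0.212 (0.0527 to 0.633). Gas5 had 10 polysomal against 9 total mRNA reads and a ratio of 1.18 (0.430 to 3.28). The intervals cover counting error only, and the interval of Gas5 overlaps that of Snhg12 but not that of Snhg5.

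These members were compared between fractions over cultures by exact sign-flip permutation tests on log2(RPM + 0.05), 5 genes in each genotype and 10 tests in all. The p-values are two-sided and not adjusted. The values were not centred on coding genes, and the flips treat cultures as independent although they share clones and numbers. Snhg6 and Snhg5 gave the smallest p the design allows, 0.0312 for 6 WT cultures and 0.00781 for 8 R98S cultures (exact permutation), with mean log2 differences of -2.83 and -2.10 for Snhg6 and -2.73 and -2.64 for Snhg5 (WT and R98S). Snhg1 had -0.48 in WT (exact permutation p = 0.25) and -0.69 in R98S (exact permutation p = 0.0234, lower in 7 of 8 cultures), where its centred ratio in R98S was below 0 in 6 of 8 cultures and not called. Snhg12 had -0.96 and -1.001 (exact permutation p = 0.125 and 0.0781). Gas5 had 0.49 and 0.04 (exact permutation p = 0.25 and 0.812).

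The noncoding hosts spanned a wide range of ratios. Snhg6 and Snhg5 were 5.08-fold and 14.9-fold lower on polysomes in RPM, Snhg1 1.51-fold lower, and Gas5 had 10 against 9 reads, all summed over genotypes and numbers. Within a genotype, Snhg5 was 33.7-fold lower in WT (1 against 31 reads, ratio 0.0296, exact 95% interval 0.000727 to 0.178) and 10.8-fold lower in R98S (5 against 64 reads). Snhg6 was 10.4-fold and 3.88-fold lower, and Gas5 had 5 against 2 reads in WT and 5 against 7 in R98S. Snhg7 had a centred ratio of -0.82 in WT (limma adjusted p = 0.000825) and -0.73 in R98S (limma adjusted p = 0.00072) and lay below the coding median in all 14 cultures. Snhg4, a noncoding host with polysomal means of 4.21 in WT and 7.67 in R98S, was too low to be tested. Its centred ratio ran from -2.21 to 1.37 and lay below the coding median in 10 of 14 cultures. Over the 54 long noncoding genes tested, 7 were called higher and 18 lower in WT, with a median of -0.22, and 11 higher and 17 lower in R98S, with a median of -0.18. That is 46.3% and 51.9% called, below the 64.6% and 61% of all genes, which were split into 3539 higher and 3325 lower in WT. Without centring all genes were split into 1948 higher and 5042 lower in WT and 1484 higher and 4962 lower in R98S. Coding snoRNA hosts had medians of 0.31 in WT and 0.36 in R98S over all numbers, and of -0.18, -0.030 and 0.83 in numbers 1, 2 and 3 over both genotypes.

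Snhg6 was the member called between the genotypes, in both fractions, in polysomal RNA by the fit at the lower minimum mean of 1. In total mRNA it was 1 of 2 members tested, where 30.3% of 11133 genes were called. In polysomal RNA 1742 genes were called at the lower minimum, 1065 higher and 677 lower in R98S. Their share of the genes tested is not given here, so the call of Snhg6 was not placed against one. In the main fit of polysomal RNA, which left Snhg6 out, 13.5% of 10707 genes were called. In total mRNA, R98S libraries held 17.4, 27.1 and 42.4 normalized counts (lowest, median, highest of 9) and WT libraries 3.01, 15.9 and 26.3 (of 8). The groups overlapped, with 5 R98S libraries above the highest WT library and 4 WT libraries below the lowest R98S library. The log2 fold change was 0.90 (95% interval 0.21 to 1.59, limma adjusted p = 0.0572), a 1.86-fold higher level in R98S. The lowest library, WT clone 36 number 2, held 3 reads of Snhg6 and also the lowest count of Snhg1 (577 normalized counts) and no read of Snhg5. The call was lost without R98S clone 11 number 1 (limma adjusted p = 0.104), without WT clone 28 number 3 (0.104), without number 3 (0.323), without R98S clone 11 (0.198), R98S clone 13 (0.117) or WT clone 28 (0.138) and after quantile normalization (0.129), with values of log2 0.63 to 1.14 over all alternatives.

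In polysomal RNA the normalized counts of Snhg6 were higher in R98S at each replicate number, on few reads. Number 1 held 8.26 normalized counts in R98S clone 11, 7.71 in clone 13 and 2.93 in clone 35, against 2.31 in WT clone 29. Number 2 held 10.1 in R98S clone 13 and 4.83 in clone 35, against 1.33 in WT clone 28 and 1.46 in clone 29. Number 3 held 3.57 in R98S clone 11, 1.52 in clone 13 and 9.00 in clone 35, against 1.17 in WT clone 28, 1.20 in clone 29 and 1.32 in clone 36. Within each number all R98S libraries lay above all WT libraries, and over all numbers 7 of 8 R98S libraries lay above the highest WT library. These values stand for 52 reads in R98S and 10 in WT, and in reads the groups are not separated within numbers 1 and 3. In number 3, R98S clone 13 held 1 read, as did each of the 3 WT libraries, and in number 1, R98S clone 35 held 2 reads against 3 in WT clone 29, so the order there rests on the scaling to depth. The means were 5.99 ± 3.18 (SD, n = 8) and 1.47 ± 0.426 (n = 6). The log2 fold change was 1.36 (95% interval 0.61 to 2.11, limma adjusted p = 0.022 at a minimum mean of 1). The call was lost without number 1 (1.37, limma adjusted p = 0.131) or number 2 (1.23, limma adjusted p = 0.160), at about the same size. Over 21 alternatives the fold change ran from 0.711 to 1.555, and 19 of them were calls. The difference in the ratio of Snhg6 between genotypes, log2 0.54, was not called (95% interval -0.38 to 1.45, limma adjusted p = 0.864). This difference ran from 0.031 to 0.91 over all alternatives and was called in none of them.

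Snord87 lies in an intron of Snhg6 and its row was higher on average in R98S, as that of the host was; this difference was not tested. It had 130 reads in 17 of 17 total mRNA libraries and 14 reads in 4 of 14 polysomal libraries. In total mRNA the means were 9.96 ± 5.22 normalized counts for R98S (SD, n = 9) and 5.05 ± 4.68 for WT (n = 8), and the groups overlapped. Polysomal libraries held 0 in all 6 WT libraries and 0 to 9.00 in R98S. Over the 17 total mRNA libraries, which share clones and numbers, Snord87 and Snhg6 had a Pearson r of 0.675 on log2(value + 1). Mcmdc2, which shares 11.1% of the exonic bases of Snhg6 on the opposite strand, had a mean of 0.362 in total mRNA and of 0.649 on polysomes.

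Snhg5 (chr9:88521050-88522929, minus strand) had 2.38, 8.27 and 10.02 normalized counts in R98S total mRNA (lowest, median, highest of 9) and 0, 4.87 and 7.54 in WT (of 8). The medians differed while the ranges overlapped, and 5 R98S libraries lay above the highest WT library. The log2 fold change was 0.84 (95% interval 0.05 to 1.63) and missed the threshold (limma adjusted p = 0.132), while with the replicate number as a block it was 0.86 and a call (limma adjusted p = 0.0917). It was also called with a pseudocount of 5, at a smaller value of 0.45, and without R98S clone 35 number 1 or WT clone 36 number 3. The value was 0.51 without number 2 (limma adjusted p = 0.459) and 0.53 without WT clone 36 number 2 (limma adjusted p = 0.248). Snhg12 had 0 to 5.96 in R98S and 0 to 4.01 in WT, with a log2 fold change of 0.06 (-0.79 to 0.91, limma adjusted p = 0.939). Gas5 had 12 reads in 4 of 9 R98S libraries and 2 reads in 2 of 8 WT libraries (exact permutation p = 0.137 on normalized counts).

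**Figure D4:**
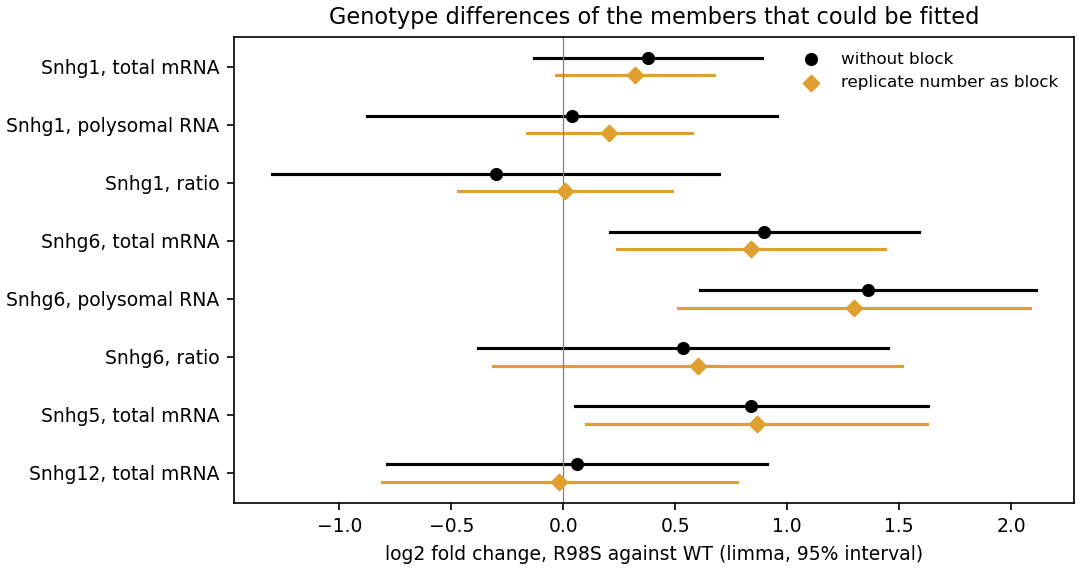
Log2 fold change of R98S against WT with its 95% interval (limma) for the members that could be fitted, without a block (black circles) and with the replicate number as a block (orange diamonds). The intervals of Snhg6 in total mRNA and polysomal RNA and of Snhg5 lie above 0, and those of Snhg1, Snhg12 and the ratios include 0.

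Genes that start within 1 kb of a member, or overlap it, were read beside it. Slc3a2, the heavy chain of an amino acid transporter, starts 106 bases from Snhg1 on the opposite strand and had log2 fold changes of -0.15 in total mRNA (limma adjusted p = 0.623) and -0.12 in polysomal RNA (limma adjusted p = 0.702). Its centred ratio was -0.45 ± 0.32 in number 1 (SD, n = 4), 0.37 ± 0.23 in number 2 (n = 4) and -0.24 ± 0.49 in number 3 (n = 6), where Snhg1 had -1.47, -0.75 and 0.52. Number 3 against the others gave -0.19 for the ratio of Slc3a2 (limma adjusted p = 0.444). Rcc1, the exchange factor of Ran, starts 81 bases from Snhg3 on the same strand and had a mean of 1588 in total mRNA and of 2072 on polysomes while Snhg3 was at 0. Zbtb37, a zinc finger gene that starts 427 bases from Gas5 on the opposite strand, was higher in R98S polysomal RNA by 0.92 (SE 0.32, limma adjusted p = 0.0904), with 93.0 ± 29.5 against 51.7 ± 23.3 normalized counts. It was not called in total mRNA (0.25, limma adjusted p = 0.401) or in the ratio (0.61, limma adjusted p = 0.859). Gm17300, antisense to Snhg3, had a total mRNA mean of 18.9 ± 8.87 for the 9 R98S and 9.41 ± 12.1 for the 8 WT libraries (SD). It was higher in R98S by log2 1.63 (SE 0.58, limma adjusted p = 0.0521). The groups overlapped, the highest library of all was WT (36.2 against 32.2 in R98S), and the WT mean lies below the minimum of 10.

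Over the 17 total mRNA libraries, the genes most like Snhg1 were Srsf7, a splicing factor (Pearson r = 0.939 on log2(value + 1)), Exosc4, a subunit of the RNA exosome (0.908), and Nkrf (0.906). Those most like Snhg6 were Zfp239 (0.940), Eif1a, a translation initiation factor (0.933), and Wdr73 (0.920). Snhg1 and Snhg6 themselves had a Pearson r of 0.805, and Snhg1 had 0.341 with Slc3a2 and 0.228 with Snhg7. The libraries share clones and replicate numbers, and the likeness was not tested.

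Partners of these RNAs were given by lists that hold none of the 10 genes. Of 19 paraspeckle proteins, which assemble on Neat1, 7 were called in total mRNA, 1 higher and 6 lower in R98S (36.8%, with a median log2 fold change of -0.09, against 30.3% and 0.0035 over all genes). Pspc1 fell by 0.71 in total mRNA (SE 0.11, limma adjusted p = 0.000156) and by 0.86 in polysomal RNA (SE 0.14, limma adjusted p = 0.000936), and Hnrnpa1 fell by 0.62 and 0.63 (limma adjusted p = 4.74e-05 and 0.00819). Of 24 nonsense-mediated decay factors 3 were called in total mRNA, 12.5%, among them Magohb, an exon junction subunit, which fell by 0.94 (SE 0.20, limma adjusted p = 0.00228), and Casc3, of the same complex, which was higher by 0.41 (SE 0.11, limma adjusted p = 0.0149). The split was 1 higher and 2 lower, and with the replicate block 6 were called, 3 in each direction. Of 17 proteins of snoRNA particles and their assembly 2 were called in total mRNA, both higher, namely Dkc1, the pseudouridine synthase of H/ACA particles, by 0.56 (limma adjusted p = 0.0685) and Nufip1 by 0.36 (limma adjusted p = 0.095). The median of that list was 0.27 in total mRNA and -0.31 in polysomal RNA, where limma called none of the 17, against 13.5% of all genes, and 3 had an unadjusted p under 0.05, against 2326 of all 10707 genes, namely Ruvbl2 (-0.46, limma adjusted p = 0.103), Gar1 (-0.76) and Naf1 (-0.68). With the replicate block 4 of the 17 were called in total mRNA, all higher, and 4 in polysomal RNA, all lower, where 38.4% and 30.9% of all genes were called. Of 34 coding snoRNA hosts 8 were called, 23.5%, 3 higher and 5 lower, with Gnl3 higher by 0.85 (limma adjusted p = 0.024).

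Genes of the imprinted Kcnq1 domain, the region around Kcnq1ot1, were tested for 7 of 16 members. Of the 7, 6 were called in total mRNA, 5 higher and 1 lower, where 30.3% of all genes were called. Kcnq1ot1 itself had 1 read over the 17 total mRNA libraries. Whether it silences the genes tested in these cells, or has a part in their changes, was not tested. Nap1l4 was higher by 0.58 (SE 0.13, limma adjusted p = 0.00335) and Dhcr7 by 0.68 (SE 0.17, limma adjusted p = 0.00731), while Tspan32 fell by 1.52 (SE 0.22, limma adjusted p = 8.15e-05). In polysomal RNA 1 of the 7 was called, Tspan32, which fell by 1.09 (limma adjusted p = 0.0141), a share of 14.3% against 13.5% of all genes. With the replicate block it was 3 of the 7, 2 higher and 1 lower, where 30.9% of all genes were called. Kcnq1 itself averaged 6.94 in total mRNA and 3.07 on polysomes and was below the level tested.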

How the data were processed

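Deposited values were a signal per gene, read counts that the authors divided by DESeq2 size factors within each table, after alignment to mm10 with TopHat2 2.0.11 and counting with HTSeq (per the submitters' processing notes). The kit was stranded and selected poly(A). The strand setting and annotation of the counting are not given in the sources used here. Values were whole multiples of 1 step per library, which gave whole reads for 100% of values (tolerance 0.01). No column was left unmapped. Genes were tested with limma 3.58.1 (R 4.3.3) on log2(value + 1) at a minimum mean of 10 (for the ratio, in each of the tables), with eBayes and a variance trend. P-values were two-sided and Benjamini-Hochberg adjusted over all genes tested. Ratios were tested against the coding median in 1 fit over 14 cultures.

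Replicate numbers were tested as a pairing. The deviations of R98S and WT libraries of the same number (each taken from its group mean) had correlations across genes of 0.481 to 0.620 in total mRNA, 0.666 to 0.867 in polysomal RNA and 0.538 to 0.812 in the ratio, so the numbers pair the libraries. Blocked values stand beside member results where they change a call and beside list counts that they move by over 1.5 times. The scripts were tested on simulated data. Named genes are the 10 members, genes that overlap or start within 1 kb of one, the 3 genes most correlated with a tested member, and up to 3 genes with the smallest adjusted p from each other list. Snhg7, Cct6a and Snord87 were named after their values were seen. Members and lists were chosen with earlier results of these data known. Fits used edgeR 4.0.16 and DESeq2 1.42.0 as alternatives, and the exact tests scipy. Positions came from GENCODE M21, in which 36776 symbols had a unique entry. Some genes of the lists are not reported here.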

Additional observations from a re-analysis of the deposited data

Results flagged for a closer look

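Of 16 groups of member values, 2 held a library far from the others by Dixon's criterion at 95%, which chance gives in about 1 of 20 groups. Snhg1 in R98S total mRNA had its highest value, 3184 normalized counts, in clone 35 number 1, with a gap of 0.622 of the range of 9 libraries. Snhg6 in WT polysomal RNA had its highest value, 2.31 normalized counts, in clone 29 number 1, with a gap of 0.745 of the range of 6 libraries, where all values stand for 1 to 3 reads. The difference of Snhg1 between number 3 and the other numbers was larger in polysomal RNA than in total mRNA by log2 1.63 in the test of the ratio (limma adjusted p = 2.49e-05), a comparison in which 66.8% of all genes were called.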

How the results depend on the processing

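Counts of called genes in total mRNA were 1895 without R98S clone 11 and 2213 without WT clone 28, against 3369, and 1338 to 3878 leaving out a library or number. In polysomal RNA they were 3307 with the replicate block, 751 on clone means and 822 without R98S clone 35, against 1449, with 608 to 2037 leaving out a library or number. The genotype difference in the ratio had 5 calls (limma, 725 at an unadjusted p under 0.05; BC035044, Pdxk-ps, Polr2b, Rab37 and Tmc4, named after their values were seen), 44 with the replicate block, 78 without WT clone 29, 2 with a mean of at least 1 or quantile normalization, 1 with pseudocount 5, a mean of at least 50 or edgeR on reads of both tables, and 0 on clone means or without R98S clone 11, 13 or 35 or WT clone 28, with 0 to 135 leaving out a library or number. Calls in the ratio were 4035 in R98S without clone 35, against 6480, with 3902 to 6830 leaving out a library or number, and 2773 to 7302 in WT, against 6864.

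Snhg1 in total mRNA (log2 0.38) was called on clone means, 0.41, and ranged from 0.18 to 0.52 leaving out a library or number. In polysomal RNA (0.04) its sign changed to -0.083 on clone means, -0.020 without R98S clone 11, -0.17 without WT clone 29, -0.022 with edgeR and -0.020 with DESeq2 on whole reads, with -0.29 to 0.41 leaving out a library or number. In none of these was it called. Its ratio difference was 0.0080 with the replicate block and -0.61 to 0.030 leaving out a library or number. In R98S its ratio became a call at -0.56 with the replicate block, -0.53 on clone means, -0.60 after quantile normalization and -0.82 without centring, with -1.10 to -0.044 leaving out a library or number. In WT it was -0.57 with the replicate block, a call, and -1.13 to 0.070 leaving out a library or number. The WT ratio was not called at -0.16 on clone means, -0.34 after quantile normalization and -0.57 without centring. Its sign was positive there without number 1, without number 2 and without WT clone 29 number 1. Snhg6 in total mRNA missed the threshold at 0.77 after quantile normalization, 0.79 without R98S clone 11, 0.91 without R98S clone 13 and 0.90 without WT clone 28, with 0.63 to 1.03 leaving out a library or number. Snhg12, never called, was -0.017 with the replicate block and -0.13 to 0.26 leaving out a library or number. The difference of Snhg1 between numbers in total mRNA was -0.051 without WT clone 36. Besides the ratio of Snhg1 in WT and in R98S, the block made Snhg5 in total mRNA a call (0.86, limma adjusted p = 0.0917). It changed no other call of a member. The cause of these changes was not tested.

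Values of the low members rest on few reads, and the cause of their low level was not tested. Snhg12, Gas5, Neat1, Malat1 and Kcnq1ot1 hold 30 or fewer reads each, and fits of Snhg5, Snhg6 in polysomal RNA and Snhg12 used genes with a mean of at least 1. The use of that minimum as the base for these members, the contrast of number 3, the sign-flip tests and the summed ratios were chosen after seeing the data.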
